A study of Homo sapiens with 4 samples.

Results

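The 34 genes described here encode the folding and quality-control machinery of the endoplasmic reticulum (ER): its stress sensors, chaperones, disulfide isomerases, ER-associated degradation (ERAD) proteins and parts of the translocon. They came from a fixed list of symbols, proposed with earlier results of these data known, so counts over the list are descriptions. All 34 were found among the 62649 gene identifiers of the count files. They also passed the filter on low counts that left 24961 genes. Every library came from A375, a human melanoma line with an activating BRAF mutation, grown in RPMI-1640 with fetal bovine serum and sequenced after polyA selection. The 2 control libraries came from parental cells. The 2 resistant libraries came from cells selected in vemurafenib, an inhibitor of mutant BRAF, with the dose doubled each week, starting at 0.1 and ending at 6.4 µM. Nothing in the sample descriptions says whether the resistant cells were 1 clone or a pool, whether the drug was on them at harvest, or whether replicates were separate cultures. P-values therefore cover only the differences among these 4 libraries, and the replicates may be technical.

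Secretory and membrane proteins enter the ER through the translocon, are bound by chaperones while they fold, receive disulfide bonds from protein disulfide isomerases, and are exported back to the cytosol for degradation by ERAD when folding fails. Unfolded protein in the lumen is sensed by IRE1 (gene ERN1), PERK (gene EIF2AK3) and ATF6. IRE1 splices the XBP1 message to produce an active transcription factor, ATF6 is cleaved to release another, and PERK phosphorylates eIF2α and so favours translation of ATF4. Spliced XBP1 and cleaved ATF6 bind ER stress elements in the promoters of chaperone genes, and the resulting programme is called the unfolded protein response.

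ER stress elements were looked for in RefSeq promoter windows (GRCh38.p14, 250 bases before to 50 after a transcript start), on both strands. The classical element, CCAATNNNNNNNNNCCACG, was in the windows of 8 of the 31 genes with a window, or 25.8%, and in 0.0916% of 27305 genes overall (0.0769% of 35116 windows). Element II, ATTGGNCCACG, was in 3 of the 31, or 9.68%, and in 0.0696% of all genes. The genes were listed as parts of this response, so this difference describes the list. Of the 11 genes with either element, the 8 below are shown because they hold the element upstream of genes whose levels the results turn on. Each sequence runs 5′ to 3′ on the strand of the gene, and capitals mark the element in either orientation.
HSPA5, chr9:125241383-125241417, minus strand: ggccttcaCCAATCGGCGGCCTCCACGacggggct
CRELD2, chr22:49918546-49918580, plus strand: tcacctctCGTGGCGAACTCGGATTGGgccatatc
PDIA6, chr2:10812845-10812879, minus strand: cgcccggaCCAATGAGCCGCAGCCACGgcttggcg
XBP1, chr22:28800595-28800629, minus strand: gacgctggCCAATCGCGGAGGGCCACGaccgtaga
HSP90B1, with 2 elements, chr12:103930208-103930347, plus strand: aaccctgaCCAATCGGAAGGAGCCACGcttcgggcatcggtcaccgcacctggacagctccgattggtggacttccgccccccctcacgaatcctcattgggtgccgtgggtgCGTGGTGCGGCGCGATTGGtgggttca
HERPUD1, element II, chr16:56932017-56932043, plus strand: ggacgccgATTGGGCCACGttgggaga
SDF2L1, element II, chr22:21642106-21642132, plus strand: ctcggaagCGTGGACCAATcaaaaccc
HYOU1, with 2 copies of element II, chr11:119057266-119057398, minus strand: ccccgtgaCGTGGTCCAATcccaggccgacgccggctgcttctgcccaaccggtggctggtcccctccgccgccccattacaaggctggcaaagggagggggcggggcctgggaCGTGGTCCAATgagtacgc

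CALR, CANX and ERO1B hold the classical element as well. The core of the unfolded protein response element, TGACGTGG, was in the windows of DNAJC10, TXNDC5 and HYOU1, where it overlaps an element II, and in 0.927% of all genes. Neither PDIA4 window held any of these letters, which says nothing more than that.

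**Figure D1:**
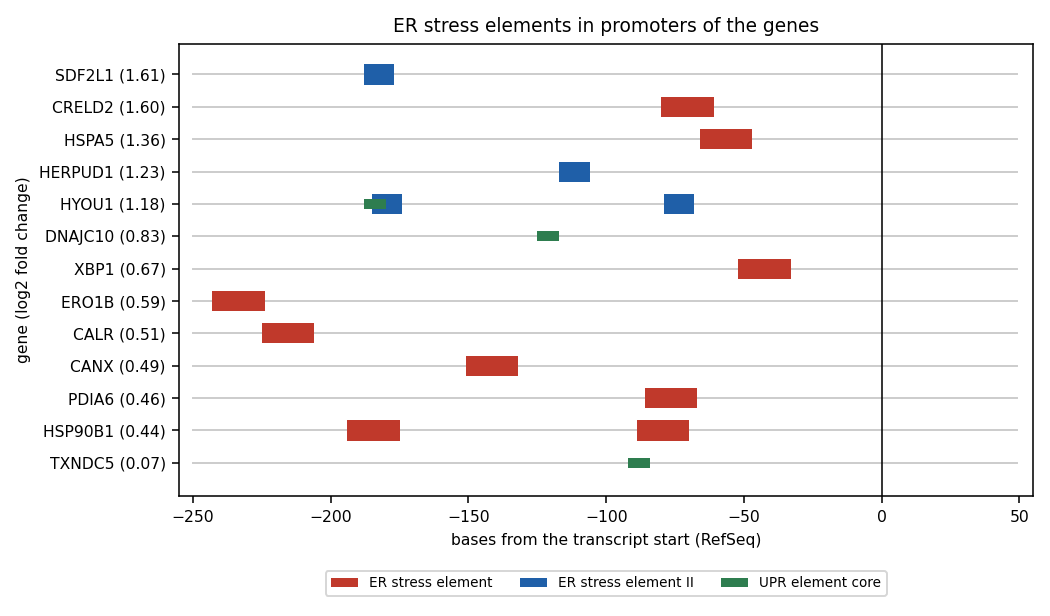
Position of ER stress and unfolded protein response elements in RefSeq promoter windows of 13 of the genes, in bases from the transcript start on the x axis, with genes on the y axis ordered by log2 fold change (in brackets, resistant over control). Each bar is a match on either strand in 1 window of the gene. CRELD2 (1.60) and HSP90B1 (0.44) both hold a classical element less than 100 bases before the start.

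Assigned counts per library ranged from 68022689 to 87178097. In control replicate 1 every count was even, so its total may count each alignment 2 times and lie above its real depth. With mates counted singly, the totals would then stand for about 18072617 fragments in control replicate 1 and 34011344 to 43589048 in the other libraries. Halving its counts changed no call among the 34 genes. Of 10 melanoma markers 8 reached 1 CPM in every library (counts scaled to a fixed library total after TMM normalisation), with 704 to 1149 CPM of SOX10, while the pigment enzyme genes TYR and DCT stayed under 0.3 CPM. Summed leukocyte markers came to 1.03 to 2.55 CPM over 6 genes and summed fibroblast markers to 10.6 to 14.9 CPM over 6. Of 6 keratinocyte markers, with sums of 49.2 to 89.8 CPM, KRT10 alone reached 1 CPM in every library. KRT1, TP63 and DSG3 were at 0 in control replicate 1, KRT1 also in resistant replicate 2 and DSG3 in resistant replicate 1. CD3E was at 0 in all but control replicate 2. The fibroblast, keratinocyte and leukocyte sums were each highest in a library other than resistant replicate 1, which held the most ER chaperone transcript. The melanoma sum, 1536 and 2754 CPM in controls and 3210 and 2920 CPM in resistant cells, had the same order of libraries as the ER genes below, mostly through CSPG4 (470 to 1791 CPM), and its part in the results was not tested.

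Resistant and parental cells were compared for the level of this machinery. Of the 34 genes 33 had a positive log2 fold change, with a median of 0.58, where 12613 of 24961 tested genes (50.5%) had a positive one and their median was 0.01. Both resistant libraries lay above both controls for 28 of the 34 genes, against 22.4% of all tested genes, and below both for 1 gene, EDEM1, against 22.2%. In 5 genes the groups overlapped: HSP90B1, CALR, MANF, TXNDC5 and DERL1. In bulk RNA, more cells with a transcript and more transcript per cell cannot be told apart.

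A single one of the 34 genes passed the test over all genes. PDIA4 rose 3.93-fold (edgeR adjusted p = 0.04995, by the Benjamini-Hochberg method), where 0.577% of all tested genes were called higher and 0.513% lower. Without adjustment, 22 of the 34 had a higher level and 1, EDEM1, a lower level at an edgeR p under 0.05, against 6.14% and 7.32% of all tested genes. DESeq2, as an alternative, called 7 of the 34 higher (HSPA5, HYOU1, DNAJC10, SDF2L1, PDIA4, HERPUD1 and SYVN1), against 2.32% of the genes it tested, and none lower. With an adjusted p this close to 0.05, the PDIA4 call was lost on library totals without TMM factors (edgeR adjusted p = 0.0527), with a filter at 1 CPM (0.0644), and with the replicate number as a block (0.0942).

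The fitted increase was at least 2-fold in 7 genes: PDIA4, SDF2L1, CRELD2, HSPA5, DNAJB9, HERPUD1 and HYOU1. It lay between 1.2-fold and 2-fold in 22 others. In 4 genes (TXNDC5, EDEM2, DERL1 and DERL2) the difference was under 1.2-fold, and EDEM1 was 1.42-fold lower. By role, the median log2 fold change was 0.86 for 12 chaperones and cochaperones, 0.63 for 4 sensors and factors, 0.46 for 7 disulfide isomerases with the oxidase, 0.43 for 2 translocon genes and 0.27 for 9 ERAD genes. The ERAD median is the value of DERL3, a gene with few counts. With a filter at 1 CPM, which DERL3 did not pass, the ERAD median was 0.43. The isomerases with the oxidase and the translocon genes then had 0.47 and 0.42. Differences between roles were not tested.

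**Figure D2:**
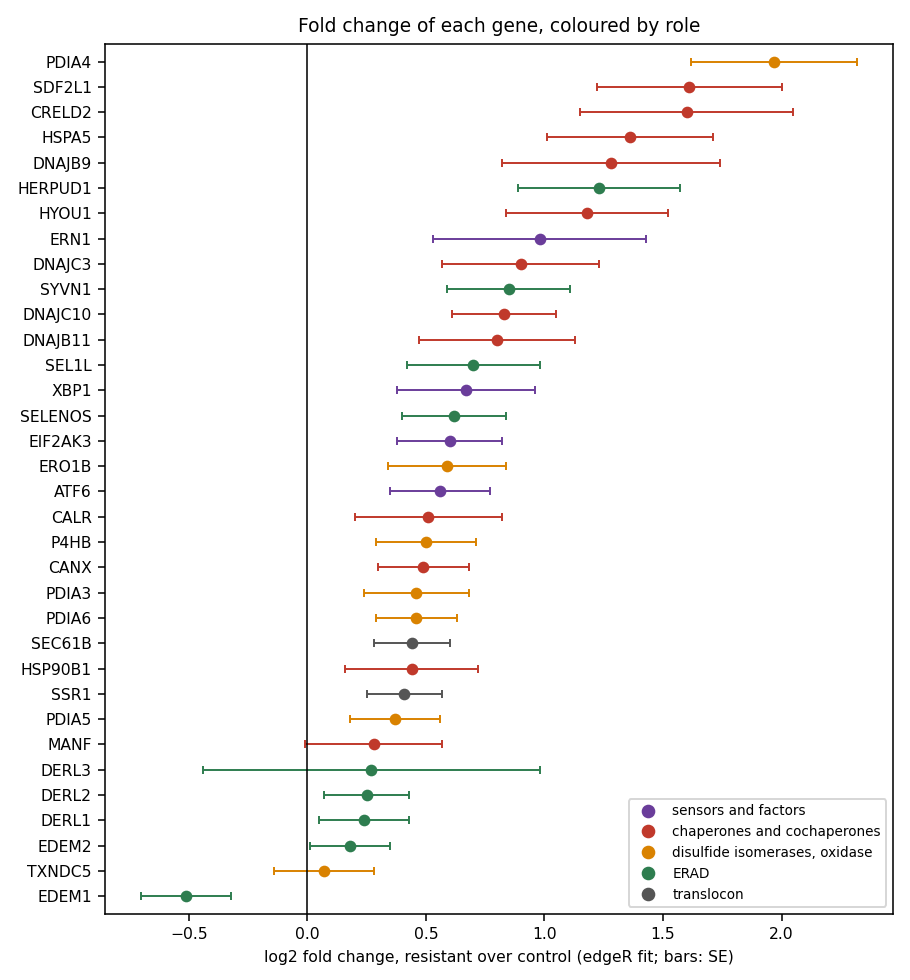
Log2 fold change of each of the 34 genes, resistant over control, from the edgeR fit (x axis, bars are SE, n = 2 libraries per group), with genes ordered by value and coloured by role. PDIA4 (1.97) is highest, EDEM1 (-0.51) is the one gene left of 0, and chaperones fill most of the upper part.

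Summed over the 34 genes, the machinery took 4450 and 5428 CPM in control replicates 1 and 2, and 10328 and 6686 CPM in resistant replicates 1 and 2. The order of the 4 libraries was thus resistant 1, resistant 2, control 2, control 1, with resistant replicate 1 at 2.09 times the mean of the controls and resistant replicate 2 at 1.35 times. Without HSPA5, the largest contributor in both resistant libraries but not in the controls, where CANX led, these ratios were 1.9 and 1.29. The same order of the 4 libraries held for 20 of the 34 genes one by one (58.8%), against 7.51% of all tested genes. The order was read from the sum of these same genes, so a higher share among them was partly built in.

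The sensors come first in the response. ERN1, which encodes IRE1, had 15.8 and 50.5 CPM in control replicates 1 and 2 and 59.5 and 71.7 CPM in resistant replicates 1 and 2. Its 2 controls differed 3.20-fold, more than the groups did (log2 fold change 0.98 ± 0.45, SE, edgeR adjusted p = 0.409). EIF2AK3, which encodes PERK, had 13.2 and 14.1 CPM in controls and 23.8 and 17.4 CPM in resistant cells (log2 0.60 ± 0.22, edgeR adjusted p = 0.282). The resistant libraries did not overlap the controls for either gene.

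ATF6, the precursor of a cleaved transcription factor, had 79.8 and 115 CPM in controls and 145 and 142 CPM in resistant cells (log2 0.56 ± 0.21, edgeR adjusted p = 0.289). XBP1, whose message IRE1 splices, had 87.2 and 168 CPM in controls and 200 and 207 CPM in resistant cells (log2 0.67 ± 0.29, edgeR adjusted p = 0.371). Gene counts do not separate spliced from unspliced XBP1, which was not analysed here. For both genes the resistant libraries were alike and control replicate 1 was the low library. In edgeR none of the 4 sensor genes passed over all genes, and DESeq2 called none. At an unadjusted edgeR p under 0.05, 3 were higher, against 6.14% of all tested genes. Without control replicate 1 the log2 fold changes of ERN1, ATF6 and XBP1 were 0.38, 0.32 and 0.28. Without control replicate 2 they were 2.06, 0.85 and 1.23.

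Chaperones had the highest median of the roles when all libraries were used. Without resistant replicate 1 their median was 0.50, below the 0.63 of the sensors and factors. HSPA5 encodes BiP, the HSP70 chaperone of the ER lumen that also restrains the 3 sensors, and had 470 and 807 CPM in controls and 2145 and 1138 CPM in resistant cells. The groups did not overlap, and resistant replicate 1 held 1.88 times as much as resistant replicate 2 (log2 fold change 1.36 ± 0.35, edgeR adjusted p = 0.132). HYOU1, a nucleotide exchange factor for BiP named after its values were seen, had 186 and 362 CPM in controls and 753 and 489 CPM in resistant cells (log2 1.18 ± 0.34, edgeR adjusted p = 0.164). HSP90B1, which encodes GRP94, the HSP90 of the lumen, had 444 and 394 CPM in controls and 733 and 406 CPM in resistant cells. Here resistant replicate 2 lay within the controls, and the log2 fold change of 0.44 ± 0.28 (edgeR adjusted p = 0.564) became -0.04 without resistant replicate 1.

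SDF2L1 and CRELD2 had the largest log2 fold changes of the 12 chaperone genes. SDF2L1, a partner of BiP and its J-domain proteins, had 9.95 and 10.6 CPM in controls and 44.9 and 17.9 CPM in resistant cells (log2 1.61 ± 0.39, edgeR adjusted p = 0.108). CRELD2, a secreted ER-stress-induced protein, had 12.5 and 12.9 CPM in controls and 58.2 and 19.0 CPM in resistant cells (log2 1.60 ± 0.45, edgeR adjusted p = 0.157). The controls were close together for both genes, while resistant replicate 1 was 2.51 and 3.06 times resistant replicate 2. Without resistant replicate 1 the log2 fold changes were 0.81 and 0.59, and without resistant replicate 2 they were 2.13 and 2.19.

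J-domain proteins recruit BiP to its substrates. DNAJB9 (ERdj4) had 12.7 and 36.3 CPM in controls and 75.0 and 44.1 CPM in resistant cells, with a 2.86-fold difference between the controls (log2 1.28 ± 0.46, edgeR adjusted p = 0.274). DNAJC3 (p58IPK), which also inhibits PERK, had 37.4 and 50 CPM in controls and 111 and 52.2 CPM in resistant cells (log2 0.90 ± 0.33). DNAJB11 (ERdj3) had 23.9 and 27.1 CPM in controls and 60.4 and 28.4 CPM in resistant cells (log2 0.80 ± 0.33). In both of the latter, resistant replicate 2 was barely above control replicate 2, and without resistant replicate 1 the log2 fold changes were 0.27 and 0.16. DNAJC10 (ERdj5), a reductase with a J domain, had a log2 fold change of 0.83 ± 0.22, between 0.60 and 1.07 with 1 library left out.

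The lectin chaperones calreticulin (CALR) and calnexin (CANX) hold glycoproteins during folding. CALR had 653 and 491 CPM in controls and 1072 and 557 CPM in resistant cells, so the groups overlapped, and its log2 fold change of 0.51 ± 0.31 became -0.03 without resistant replicate 1. CANX did not overlap (log2 0.49 ± 0.19). MANF, a lumenal protein that binds BiP, had 55.3 and 52.4 CPM in controls and 86.2 and 44.7 CPM in resistant cells (log2 0.28 ± 0.29, and -0.26 without resistant replicate 1). In edgeR none of the 12 chaperone genes passed over all genes. At an unadjusted edgeR p under 0.05, 9 were higher, against 6.14% of all tested genes. DESeq2 called 4 higher, against 2.32% of the genes it tested.

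Per kilobase of annotated exon, CALR was the most abundant of the 34 transcripts in controls (204 RPKM) and in resistant cells (291 RPKM), and HSPA5 followed with 97.8 and 251 RPKM. PDIA4 took the fourth place in controls (49.8 RPKM) and the third in resistant cells (196 RPKM), and HYOU1 the seventh (40.1 RPKM) and the fourth (91.0 RPKM). Annotated exons of all transcripts count in the length, so genes with many annotated exons appear lower on this scale.

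**Figure D3:**
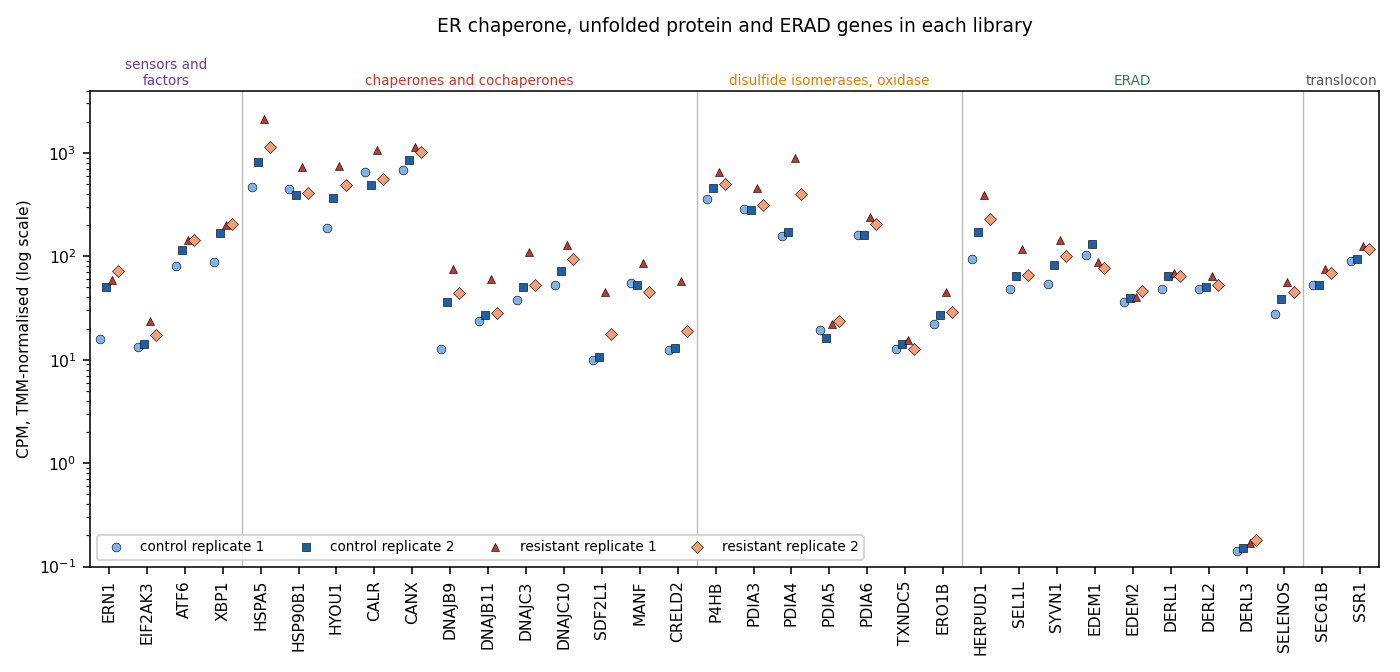
Level of each gene in each of the 4 libraries, in TMM-normalised CPM on a log axis, with genes grouped by role on the x axis (circles and squares, control replicates 1 and 2; triangles and diamonds, resistant replicates 1 and 2). HSPA5 reaches 2145 CPM in resistant replicate 1, which is the highest library for most chaperones, and DERL3 lies under 0.2 CPM throughout.

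Among the disulfide isomerases, PDIA4 (ERp72; ENSG00000155660.11, GRCh38 chromosome 7, 149003062 to 149028662, minus strand) had 157 and 171 CPM in controls and 891 and 400 CPM in resistant cells. Both resistant libraries were more than 2 times either control, and resistant replicate 1 was 2.23 times resistant replicate 2 (log2 fold change 1.97 ± 0.35, SE, n = 2 per group). With 1 library left out in turn the log2 fold change was between 1.29 (without resistant replicate 1) and 2.44 (without resistant replicate 2), with edgeR adjusted p between 1.06e-04 and 0.0325. PDIA4 lies on chromosome 7 between 140 and 160 Mb, where 68 of the 70 other genes at 10 CPM or more also had a positive log2 fold change, with a median of 0.99. MANF and EDEM1 lie on chromosome 3 between 0 and 100 Mb, where 7 of 300 such genes were positive and the median was -0.62. PDIA4, which alone passed the test, and EDEM1, which alone had a negative value, shared the direction of their neighbours. MANF, at log2 0.28, did not. The part of position in these values was not tested. The 31 genes outside these segments had a median log2 fold change of 0.59. All 31 were positive, which follows from leaving out EDEM1, the one negative gene. These segments were chosen after seeing the data, and no others were set apart.

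The other isomerases differed less. P4HB, which encodes the founding protein disulfide isomerase, had 360 and 452 CPM in controls and 649 and 499 CPM in resistant cells (log2 0.50 ± 0.21, edgeR adjusted p = 0.355). PDIA3 (ERp57), which works with the lectin chaperones, had 285 and 278 CPM in controls and 461 and 314 CPM in resistant cells (log2 0.46 ± 0.22). ERO1B, an oxidase that recharges isomerases, had 22.0 and 26.9 CPM in controls and 45.1 and 28.8 CPM in resistant cells (log2 0.59 ± 0.25). None of these overlapped between groups, and in each resistant replicate 1 was the highest library. PDIA6 and PDIA5 had log2 fold changes of 0.46 ± 0.17 and 0.37 ± 0.19, and PDIA5 was the 1 isomerase gene with its highest level in resistant replicate 2.

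TXNDC5 (ERp46) overlapped between groups (12.7 and 14.2 CPM against 15.6 and 12.7 CPM, log2 0.07 ± 0.21). Its count is uncertain, because 60.9% of its exonic bases are shared with a gene on the same strand and reads there were not assigned. Opposite-strand genes cover 25.2% of the exonic bases of PDIA6, where reads were likewise dropped. PDIA3P1, a processed copy of PDIA3, held 3.89 to 5.56 CPM, and reads that matched both places were left out of either count.

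The ERAD genes cover a ubiquitin ligase complex, lectins and channel components. HERPUD1, a scaffold of the retrotranslocation complex, had 93.1 and 171 CPM in controls and 388 and 230 CPM in resistant cells (log2 1.23 ± 0.34, edgeR adjusted p = 0.154). SYVN1, the HRD1 ubiquitin ligase, had 53.7 and 82.8 CPM in controls and 145 and 100 CPM in resistant cells (log2 0.85 ± 0.26, edgeR adjusted p = 0.198). SEL1L, the cofactor of HRD1, had 48.1 and 63.9 CPM in controls and 117 and 65.3 CPM in resistant cells (log2 0.70 ± 0.28). None of the 3 overlapped, although SEL1L in resistant replicate 2 was close to control replicate 2, at log2 0.23 when resistant replicate 1 was left out. SELENOS, a selenoprotein that tethers the p97 ATPase to the complex, had 27.8 and 38.7 CPM in controls and 56.7 and 45.4 CPM in resistant cells (log2 0.62 ± 0.22).

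The mannosidase-like gene EDEM1, which hands misfolded glycoproteins to ERAD, ran the other way. It had 102 and 131 CPM in controls and 87.2 and 76.5 CPM in resistant cells, with no overlap (log2 -0.51 ± 0.19, edgeR adjusted p = 0.290, and -0.67 to -0.31 with 1 library left out), close to the median of its chromosome segment. It was named after its values were seen. Its relative EDEM2 had a log2 fold change of 0.18 ± 0.17, and the derlin genes DERL1 and DERL2, which encode channel components, had 0.24 ± 0.19 and 0.25 ± 0.18. DERL3 held 10 to 15 counts per library as deposited, and 77.0% of its exonic bases lie under a gene on the opposite strand, so its value of 0.27 ± 0.71 carries little weight. In edgeR none of the 9 ERAD genes passed over all genes. At an unadjusted edgeR p under 0.05, 4 were higher and 1 lower, against 6.14% and 7.32% of all tested genes. DESeq2 called 2 higher, against 2.32% of the genes it tested.

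Replicates lay close together for both translocon genes. SEC61B, a subunit of the channel, had 53.1 and 52.4 CPM in controls and 75.0 and 68.7 CPM in resistant cells (log2 0.44 ± 0.16, edgeR adjusted p = 0.271). SSR1, of the translocon-associated protein complex, had 90.2 and 93.2 CPM in controls and 126 and 117 CPM in resistant cells (log2 0.41 ± 0.16, edgeR adjusted p = 0.318). The groups did not overlap for either gene, and the 2 resistant libraries differed by less than the groups did. Neither passed edgeR over all genes or DESeq2. Both were higher at an unadjusted edgeR p under 0.05, against 6.14% of all tested genes.

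The resistant libraries were not alike. Resistant replicate 1 exceeded resistant replicate 2 in 29 of the 34 genes, among them all 12 chaperones, against 49.6% of all tested genes. The ratio was at least 1.5 in 14 of the 34, and in none did resistant replicate 2 lead by that much. Against the mean of the controls, the median log2 ratio of the chaperones was 1.29 in resistant replicate 1 and 0.48 in resistant replicate 2. For the sensors and factors the 2 values were 0.72 and 0.62.

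The controls also differed, with control replicate 2 above control replicate 1 in 27 of the 34 genes, including all 9 ERAD genes and all 4 sensors and factors, against 51.1% of all tested genes. In 7 genes control replicate 2 was at least 1.5 times control replicate 1, and in none was control replicate 1 higher by that much. The median log2 fold change of the 34 genes was 0.47 without control replicate 1, 0.71 without control replicate 2, 0.36 without resistant replicate 1 and 0.79 without resistant replicate 2. Without resistant replicate 1, 29 of the 34 genes had a positive value.

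Genes listed for the PERK and ATF4 branch, 12 outside the 34 with ATF4 itself among them, ordered the resistant libraries the other way. All 12 had a positive log2 fold change (median 0.51), against 50.5% of all tested genes. Resistant replicate 1 exceeded resistant replicate 2 in 1 of the 12 (8.33%), against 49.6% of all tested genes. Of 10386 genes that reached 10 CPM in 1 group or both, 37.3% were higher in resistant replicate 1. Those genes thus leaned the same way, though less. Their median log2 ratio of resistant replicate 1 to 2 was -0.08, where the 12 had -0.36. For the 12, the median log2 ratio to the controls was 0.30 in resistant replicate 1 and 0.60 in resistant replicate 2. TRIB3, a pseudokinase gene, had 136 and 536 CPM in controls and 405 and 738 CPM in resistant cells, and ASNS, asparagine synthetase, had 4.78 and 14.1 CPM in controls and 13.7 and 20.2 CPM in resistant cells. Both overlapped between groups, with control replicate 1 as the low library. Of the exonic bases of ASNS, 49.3% are shared with a gene on the same strand, where reads were not assigned. Both resistant libraries lay above both controls in 4 of the 12 genes and below both in 0, against 22.4% and 22.2% of all tested genes. In edgeR none of the 12 passed over all genes. At an unadjusted edgeR p under 0.05, 3 were higher, against 6.14% of all tested genes. DESeq2 called 1 higher, against 2.32% of the genes it tested.

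**Figure D4:**
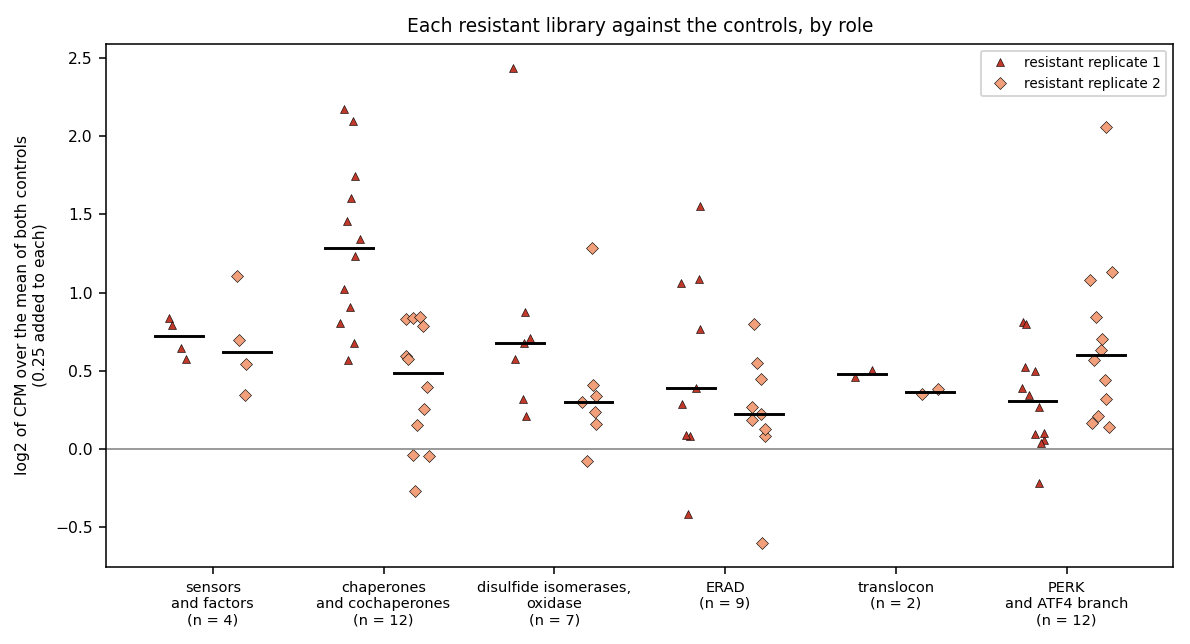
Log2 ratio of each resistant library to the mean of both controls (y axis, 0.25 CPM added to each value), 1 point per gene, by role and for the PERK and ATF4 branch, with the median as a bar. Chaperone medians are 1.29 in resistant replicate 1 and 0.48 in resistant replicate 2, whereas the genes listed for the PERK and ATF4 branch have 0.30 and 0.60.

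The remaining ER genes were described by lists. In 97 genes of 5 further lists, the PERK and ATF4 branch included, 63 had a positive log2 fold change and the median was 0.15. In edgeR none of the 97 passed over all genes. At an unadjusted edgeR p under 0.05, 15 were higher and 6 lower, against 6.14% and 7.32% of all tested genes. DESeq2 called 5 higher, against 2.32% of the genes it tested, and 1 lower. The resistant libraries lay above both controls in 43 of the 97 and below both in 14, against 22.4% and 22.2% of all tested genes.

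Of 30 other folding genes 18 were positive (median 0.13). CLGN, a calnexin relative, had 3.19 and 5.82 CPM in controls and 12.6 and 11.9 CPM in resistant cells (log2 1.44 ± 0.31, edgeR adjusted p = 0.0855), and CRELD1, the relative of CRELD2, had a log2 fold change of -0.69 ± 0.26. Of 22 other translocation and glycosylation genes 19 were positive (median 0.24). Among them SEC11C, of the signal peptidase, stood at log2 0.95 ± 0.18 (edgeR adjusted p = 0.0605), and STT3B, of the oligosaccharyltransferase, at log2 -0.71 ± 0.16 (edgeR adjusted p = 0.0971).

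Of 22 other ERAD genes 9 were positive (median -0.02), with TMUB1 at 0.71 ± 0.17 and NGLY1, the peptide N-glycanase gene, at -0.69 ± 0.18. Of 11 other signalling genes 5 were positive (median -0.01), and CREB3L2, which encodes an ATF6-like membrane-bound factor, stood at log2 0.92 ± 0.22 (edgeR adjusted p = 0.110), with 89.1 and 132 CPM in controls and 194 and 224 CPM in resistant cells. WFS1, an ER membrane glycoprotein gene, had 0.62 ± 0.19.

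Fold changes were set beside the promoter elements. The 8 genes with the classical element had log2 fold changes from 0.44 to 1.60 with a median of 0.55, and the 23 without had a median of 0.62. Those 23 include the 3 genes with element II, HERPUD1, HYOU1 and SDF2L1, which had values of 1.23, 1.18 and 1.61. The 11 genes with either element had a median of 0.67, and the 20 with neither had a median of 0.58. PDIA6 and HSPA5, whose classical elements begin 86 and 66 bases before the start in the sequences above, had 0.46 and 1.36. These are descriptions of few genes and were not tested.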

How the data were processed

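Gene counts of 4 libraries (2 control, 2 resistant) were used. Per the file headers, the authors counted reads with featureCounts 2.0.0 against GENCODE release 42, with no option beyond annotation and output. By that program's defaults strand was ignored, mates were counted singly, and reads matching several places or genes were dropped. The submitters' processing notes list STAR, featureCounts, DESeq2 and GRCh38. The deposited counts are raw. The file names of the resistant libraries carry other numbers than their labels, and each file was taken under the record that holds it. A deposited table of log fold changes names no comparison and was not used.

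Genes were filtered with filterByExpr, scaled by TMM and compared by the quasi-likelihood F test of edgeR (R 4.3.3, edgeR 4.0.16, limma 3.58.1), with group as the sole term, two-sided, with Benjamini-Hochberg adjustment over 24961 genes at 0.05. DESeq2 1.42.0 was an alternative. CPM use TMM-scaled totals, RPKM divide them by exonic length, and SE is the log2 fold change over the square root of F. A count of 3 corresponds to 0.0344 to 0.0441 CPM, for counting error only, and is too low a limit in control replicate 1 should its even counts reflect double counting. On counts simulated with equal spread for all genes, edgeR recovered 11 of 67 genes changed 2-fold and 65 of 67 changed 4-fold. It called 9 of 24002 unchanged genes. A gene near 2-fold could thus differ and not be called.

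Genes and lists were chosen with earlier results of these data known, so no list was tested as a set. Values in each library are given for genes past the test, sensors, HSPA5, HSP90B1, the 4 genes per role with the largest fold change at 5 CPM or more, and genes whose replicates differ over 2-fold. In other lists the 2 largest fold changes at that level are named. Other genes with such values were named after their values were seen. Of 62649 identifiers 62625 matched a symbol. Promoters are RefSeq's (31 genes matched). Protein sequences were not used here.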

Additional observations from a re-analysis of the deposited data

How the results depend on the processing

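The median log2 fold change of the 34 genes stayed positive under every alternative tried, from 0.36 to 0.79 with 1 library left out and from 0.57 to 0.60 under the other settings. Counts of calls did not hold. With 1 library left out the genes called numbered 16 (without resistant replicate 2) to 2166 (without control replicate 2), and of the 34 genes 1 (without resistant replicate 1, 7 higher at an unadjusted p under 0.05) to 13 (without control replicate 2), with 4 without control replicate 1 and 2 without resistant replicate 2. A lone library is then assumed to vary like the other group. All genes called numbered 272 in the main analysis, 1866 without a filter, 176 with a filter at 1 CPM and 1210 with DESeq2. Of the 34 genes, 14 were called higher without a filter, against 905 of 44966 genes. DESeq2 called 7 higher, against 2.32% of the genes it tested. On library totals alone edgeR called 0 (22 higher at an unadjusted p under 0.05), against 140 of 24961 genes called higher. With the 1 CPM filter it called 0 (17 higher unadjusted), against 94 of 15575. With the replicate number as a block 64 genes and 0 of the 34 were called (17 higher unadjusted), against 33 of 24961 genes called higher. Unadjusted shares over all genes are given for the main analysis alone, where 6.14% were higher. The deviations of equally numbered libraries correlated at -0.00571 across 10089 genes. Each group held a lone pair of libraries, so this value cannot show whether equally numbered libraries were grown or prepared together. Signs reversed without resistant replicate 1 for HSP90B1 (-0.04), CALR (-0.03), MANF (-0.26) and TXNDC5 (-0.08), where leaving out resistant replicate 2 gave the highest values (0.81, 0.91, 0.68 and 0.22), and without control replicate 1 for TXNDC5 (-0.01). The cause was not tested. Of 373 values for single genes under alternatives, 330 kept their sign and side of the threshold. With the last base of the classical element free, 9 of the 31 genes with a promoter window matched, against 0.381% of all genes. The alternative leaving out genes in the chromosome 3 and 7 segments was chosen after seeing the data. Depth limits DERL3 alone among the 34.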

Other observations

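ER stress elements were also found in promoters of 33 genes outside the 34, of which 21 were tested. Of these, 12 had a positive log2 fold change, with a median of 0.13. In edgeR none of the 21 passed over all genes. At an unadjusted edgeR p under 0.05, 3 were higher and 0 lower, against 6.14% and 7.32% of all tested genes. FICD, which encodes the enzyme that AMPylates BiP, had 5.03 and 7.67 CPM in controls and 17.9 and 11.3 CPM in resistant cells, with no overlap (log2 1.2 ± 0.31, edgeR adjusted p = 0.132). SERP1, which encodes a small translocon-associated protein, had 170 and 223 CPM in controls and 285 and 288 CPM in resistant cells (log2 0.55 ± 0.19, edgeR adjusted p = 0.257). SYNPO, which encodes an actin-associated protein, had the smallest p of the 21, with 43.12 and 56.37 CPM in controls and 90.02 and 106.3 CPM in resistant cells (log2 0.98 ± 0.20, edgeR adjusted p = 0.0676). These are the 3 genes at an unadjusted p under 0.05, picked from their values. FICD was higher in resistant replicate 1 than in resistant replicate 2, SYNPO was lower, and SERP1 was nearly equal in both.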
